A study of Mus musculus with 6 samples.

Results

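The replication-dependent histone genes supply the core and linker histones that package newly copied DNA. They were taken as the protein-coding genes whose symbols begin Hist1h, Hist2h, Hist3h or Hist4h, which gave 67 genes among 55573 in the table (3 further rows with such symbols are pseudogenes and were left out). By class these were 6 H1, 18 H2A, 18 H2B, 12 H3 and 13 H4 genes. By location 54 lay in the Hist1 cluster on chromosome 13, 10 in Hist2 on chromosome 3, 2 in Hist3 on chromosome 11, and Hist4h4 alone on chromosome 6. They were read from bulk RNA sequencing of LSK cells, the bone marrow fraction without lineage markers and with Sca-1 and c-Kit that holds stem cells and multipotent progenitors. All mice were C57BL/6J and 3 months old. Wild-type mice (3 libraries, Etv6+/+) were compared with mice carrying the R355X allele of Etv6 on 1 chromosome (3 libraries, written Etv6+/- in the genotype field). ETV6 is a transcriptional repressor of the ETS family, and the series asks how it restrains inflammatory genes. The labels do not say whether libraries came from separate or pooled animals.

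Chromatin is built from a core of paired H2A, H2B, H3 and H4 subunits around which DNA is wound, with H1 binding the linker DNA. Most histone mRNA is made during S phase, when NPAT at histone gene promoters drives transcription. The mRNAs of these genes lack introns, and most end in a conserved stem-loop instead of a poly(A) tail. The stem-loop is bound by SLBP, which guides cleavage by the U7 small nuclear ribonucleoprotein and later supports translation, and the mRNA is degraded quickly when replication stops. Some histone genes also give polyadenylated transcripts, above all in cells that have left the cycle. Histone mRNA level is therefore widely used as a sign of S phase, and depends on whether a library method captures RNA without a tail. These libraries were made by single-primer amplification of total RNA, and the labels describe no poly(A) selection.

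The stem-loop is the sequence that sets these mRNAs apart, so its forms are shown first. In the GENCODE models (GRCm38), the conserved histone stem-loop was found on the sense strand in 46 of 67 genes, from 21 to 58 bases after the stop codon (median 31). The loop is in capitals, and 8 distinct sequences occurred, of which the 5 found in more than 1 gene are given with 1 example position each.
Hist1h2bm, chr13:21722506-21722521, plus strand, 26 genes of H1, H2A, H2B and H3: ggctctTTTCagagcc
Hist1h3c, chr13:23745047-23745062, minus strand, 6 genes of H1, H2B and H3: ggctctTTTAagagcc
Hist1h4d, chr13:23581950-23581965, plus strand, 7 genes of H4: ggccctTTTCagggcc
Hist1h4i, chr13:22040966-22040981, minus strand, 2 genes of H4: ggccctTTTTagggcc
Hist1h4b, chr13:23757366-23757381, plus strand, 2 genes of H4: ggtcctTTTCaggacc
The stems split by class. The ggctct stem was found in H1, H2A, H2B and H3 models and in no H4 model, and the ggccct and ggtcct stems only in H4 models. Of the 21 models with no match, 13 end at most 30 bases past the stop codon, so their transcript end is not in the annotation. A further 23 models run more than 100 bases past the stem-loop, Hist1h1d by 4884 bases, and 5 H2B models are spliced (Hist1h2bc, Hist1h2be, Hist1h2bp, Hist1h2bq and Hist1h2br).

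Promoter sequences of 62 of the 67 genes were found in RefSeq (GRCm38.p6). The 120 bases before the start site are shown for 6 genes whose values recur below. They are the most highly read H1, H2A, H2B and H4 genes, the divergent partner of the H2A gene, and Hist1h3d, the H3 gene with the smallest p between genotypes. Capitals mark the letters CCAAT (the CCAAT box), TATAAA (the TATA box) or the octamer defined below, each on either strand.
Hist1h2ak, chr13:21753913-21754032, minus strand: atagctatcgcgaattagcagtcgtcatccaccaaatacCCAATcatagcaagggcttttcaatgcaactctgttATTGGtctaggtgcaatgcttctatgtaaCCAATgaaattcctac
Hist1h2bn, chr13:21753956-21754075, plus strand: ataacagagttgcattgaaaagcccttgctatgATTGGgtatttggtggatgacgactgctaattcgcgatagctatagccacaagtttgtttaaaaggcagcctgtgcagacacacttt
Hist1h2bm, chr13:21721924-21722043, plus strand: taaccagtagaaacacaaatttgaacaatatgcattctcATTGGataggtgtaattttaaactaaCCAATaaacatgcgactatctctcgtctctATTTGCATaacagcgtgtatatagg
Hist1h4d, chr13:23581448-23581567, plus strand: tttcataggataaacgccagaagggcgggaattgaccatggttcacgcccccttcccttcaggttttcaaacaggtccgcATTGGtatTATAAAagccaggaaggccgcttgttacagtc
Hist1h1e, chr13:23622559-23622678, minus strand: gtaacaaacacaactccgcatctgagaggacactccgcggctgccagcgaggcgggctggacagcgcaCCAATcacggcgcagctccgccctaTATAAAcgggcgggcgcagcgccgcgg
Hist1h3d, chr13:23575643-23575762, plus strand: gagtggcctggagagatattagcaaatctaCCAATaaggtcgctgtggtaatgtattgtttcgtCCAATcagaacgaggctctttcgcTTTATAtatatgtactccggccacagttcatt
Over 250 bases before the start, CCAAT was found on either strand in 51 of 62 histone promoters (82.3%), against 33.8% of 32851 RefSeq promoters of the same length. All 6 H1, 18 H2A and 16 H2B promoters held it, as did 8 of 10 H3 promoters, but 3 of 12 H4 promoters. TATAAA was present in 29 of 62 (46.8% against 12.4%). The octamer ATTTGCAT, the element read by OCT1, was present in 14 of 62 (22.6% against 1.6%), 7 of them H2A and 7 H2B promoters. The ETS site CCGGAAGT was found in 0 of 62 windows, against 2.88% of all promoters. These are matches of letters, which do not show binding.

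The genes differed widely in level. Expression in CPM (the counts-per-million scale, with library sizes scaled by TMM) was divided by annotated exon length to compare genes, giving CPM per kb. Among 62 genes with enough reads to test, the mean over 6 libraries ranged from 0.913 CPM per kb for Hist2h3b to 134 for Hist1h2ak. After Hist1h2ak came Hist1h1b (115), Hist1h4d (107), Hist1h2bm (95.4), Hist1h1e (83.6) and Hist1h2bl (82.7), and the plot of levels by class shows that the libraries of the 2 genotypes were intermixed for Hist1h1b and Hist1h1e. The order depends on the gene model. With RefSeq transcript lengths Hist1h4d measured 302 and Hist1h1e 206 CPM per kb, ahead of Hist1h2ak at 98.4, because the GENCODE models of Hist1h4d and Hist1h1e run 770 and 1153 bases past the stem-loop.

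**Figure D1:**
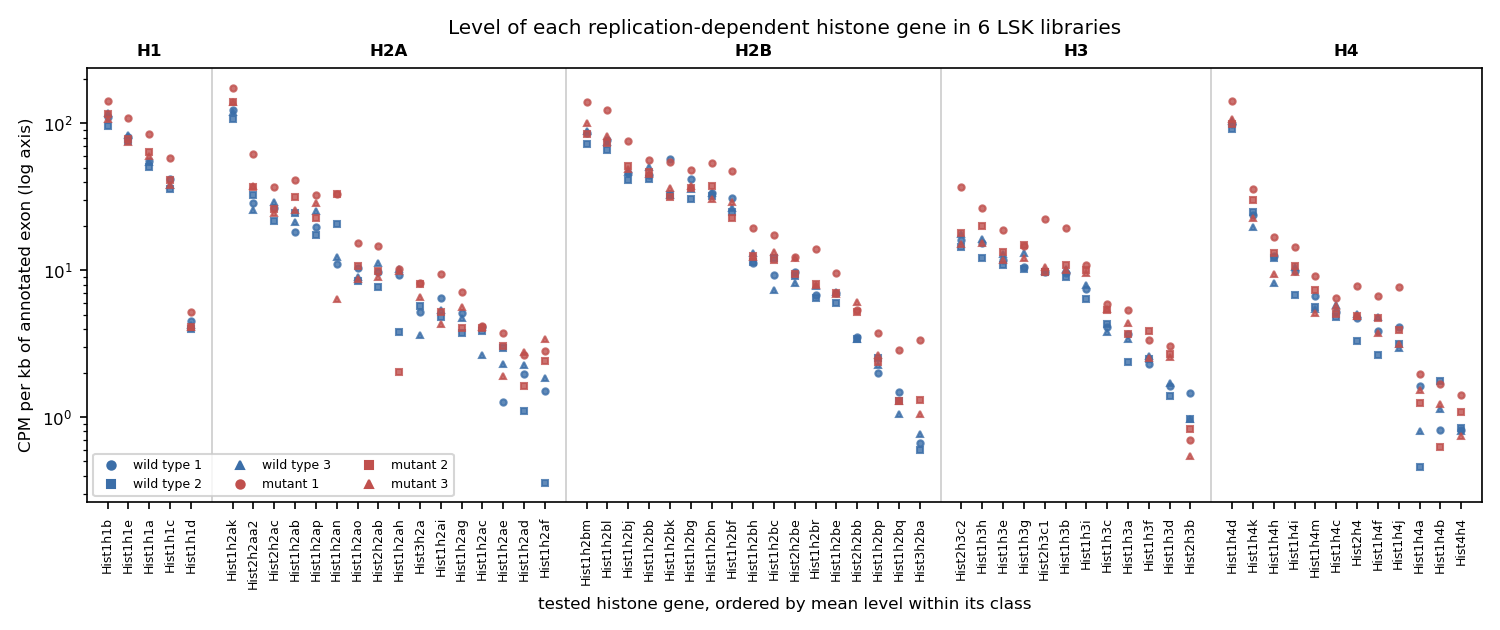
CPM per kb of annotated exon (log axis) for each of the 62 tested histone genes, grouped by class and ordered by mean level, with 1 point per library (blue wild type, red mutant). Levels run from Hist1h2ak at a mean of 134 down to Hist2h3b at 0.913, and the red circles of mutant replicate 1 are the highest point for 54 of the 62 genes.

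The H4 class shows how uneven the use of copies was. All 13 H4 genes encode the same protein, yet Hist1h4d alone took 70.3% to 74.8% of H4 reads in the 6 libraries. In H1, Hist1h1e took 39.9% to 43.1% and in H2A Hist1h2ak 30.3% to 34.2%. H2B and H3 were spread more evenly, with Hist1h2bm at 14.3% to 16.5% of H2B reads and Hist2h3c1 at 20.3% to 28.3% of H3 reads. These shares are of CPM without division by length, so longer models take more reads. The Hist1h4d model holds 1138 bases and that of Hist1h4k 312. Per kb, Hist2h3c2 (19.7) stood above Hist2h3c1 (12). The 67 genes encode 29 distinct proteins, and 10 genes share an identical coding sequence with another member. Counting these, 40 genes have a coding sequence at least 98% identical to that of another member. The split of reads among such copies is uncertain. Hist2h2aa1 was listed at 0 in 5 libraries and 0.0821 CPM in the other one, while its copy Hist2h2aa2, identical in coding sequence, measured 13.6 to 32.4 CPM. Hist1h1e (23620629 to 23622558) also overlaps the span of Hist1h2be (23583670 to 23621124), both on the minus strand of chromosome 13. How reads were split between these genes of different classes was not tested.

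Genes not tested were few and low. Hist1h1t, Hist1h2aa and Hist1h2ba, which encode testis histones, ranged from 0.0343 to 0.290, 0 to 0.0410 and 0.0668 to 0.391 CPM. Hist1h4n, identical in coding sequence to Hist1h4m, ranged from 0.0668 to 0.364 CPM. With Hist2h2aa1 these made up the 5 untested genes.

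H2A and H2B genes often sit head to head and share a promoter region, as Hist1h2ak and Hist1h2bn do in the sequences above. There were 12 such pairs, with starts 176 to 306 bases apart in the gene models. The partners were not read equally. Hist1h2ak stood at 134 and Hist1h2bn at 36.9 CPM per kb, while Hist1h2ai stood at 5.92 and its partner Hist1h2bl at 82.7. The H2B to H2A ratio ran from 0.133 for Hist1h2an and Hist1h2bp to 16 for the barely detected pair Hist1h2aa and Hist1h2ba. In the 11 tested pairs the H2B partner was the higher one in 6 and the H2A partner in 5. This count depends on the gene models, since in CPM, without division by length, the H2B partner was higher in 8 and the H2A partner in 3. The difference lies in Hist2h2be and Hist1h2br, with models of 2620 and 2212 bases, which at 26.6 and 18.8 CPM exceeded Hist2h2ac (14.3) and Hist1h2ap (11.8).

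**Figure D2:**
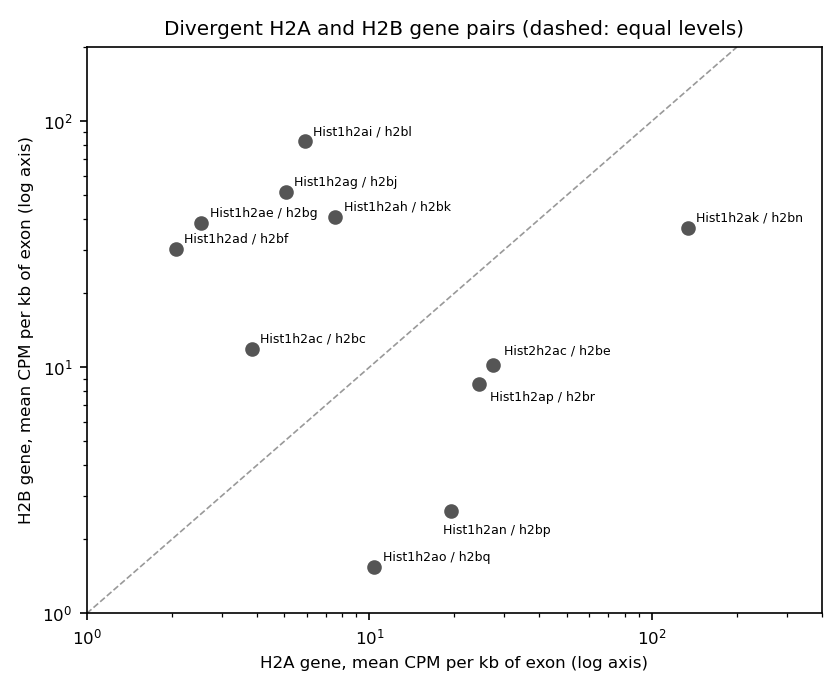
Mean CPM per kb of exon over 6 libraries of the H2A gene (x, log axis) against the H2B gene (y, log axis) for the 11 divergent pairs in which both genes were tested, the dashed line marking equal levels. Hist1h2ak and Hist1h2bn lie below the line at 134 and 36.9, and Hist1h2ai and Hist1h2bl above it at 5.92 and 82.7.

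Etv6, the mutated gene, measured 454, 419 and 400 CPM in the wild-type libraries and 305, 341 and 386 CPM in the mutant ones. The groups did not overlap, and the log2 fold change was -0.30 (SE 0.086, adjusted p = 0.245 in the edgeR fit). The exact permutation test gave a two-sided p of 0.1, the smallest that 3 against 3 libraries allow. Gene counts do not show which allele was read. Of the LSK markers, all 12 listed genes were tested, with a summed level of 1757 to 2264 CPM in wild type and 1775 to 2001 CPM in the mutant, and Kit stood at 419 ± 33.0 and 378 ± 23.5 CPM (SD, n = 3). Totals were 47.9 to 60.8 M expected counts in wild type against 45.2 to 92.2 M in the mutant, with mutant replicate 1 the deepest. That library stood apart in other respects. Rows of nuclear ribosomal RNA and its repeats took 10.2% of its counts against 7.06% to 7.77% in the other libraries, so values of the replication-dependent histone genes below are also given without it.

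Histone mRNA measured somewhat higher in the Etv6 R355X/+ libraries, but no histone gene passed the adjusted threshold. With the edgeR quasi-likelihood test, adjusted by Benjamini-Hochberg over all 20646 tested genes, 0 of 62 histone genes passed at 0.05, against 0.266% of all genes. DESeq2 on the same counts called 5 (Hist1h2ak, Hist2h2aa2, Hist3h2a, Hist1h2ab and Hist1h3d), and it called 323 genes in all against 55 by edgeR. Limma-voom called 0 histone genes and 41 genes in all. At an unadjusted p under 0.05, 18 of 62 were higher in the mutant and 0 lower, beside 5.83% higher and 4.8% lower over all genes. The log2 fold change was above 0 for 59 of 62 (50.6% of all genes), with a median of 0.37 against 0.0019 over all tested genes. All 3 mutant values lay above all 3 wild-type values for 14 histone genes (8.45% of all genes) and below them for 1, Hist2h3b (7.84% of all genes). Since the histone genes vary together and share near-identical sequence, these counts are not 62 independent observations. In bulk samples, more cells in S phase and more histone mRNA per cell cannot be told apart.

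Mutant replicate 1 carried most of the difference. Summed over all 67 genes, histone reads came to 1057, 951.4 and 1048 CPM in wild type against 1558, 1099 and 1082 in the mutant. All 3 mutant sums were above the wild-type ones, but replicate 1 was 1.53-fold the wild-type mean while replicates 2 and 3 were 1.08-fold and 1.06-fold. The log2 ratio of the sums was 0.27 with all libraries and 0.10 without replicate 1. It was the highest of the 6 libraries for 54 of 62 histone genes, against 24.4% of all tested genes. In replicates 2 and 3, 50 and 43 of 62 histone genes stood above their wild-type mean (49.8% and 50.1% of all genes), and in wild-type replicates 1, 2 and 3, 44, 17 and 38 did (50.2%, 50.3% and 50.4%).

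**Figure D3:**
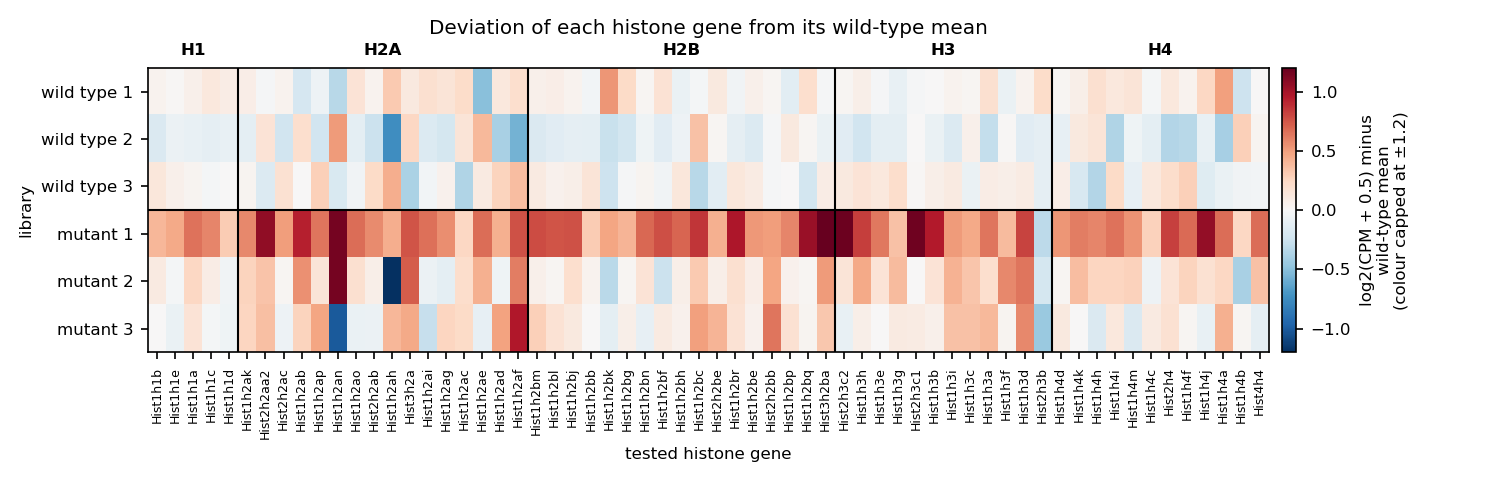
Colour gives log2(CPM + 0.5) minus the wild-type mean for each of the 62 tested histone genes (columns, by class) in each library (rows), with colour capped at the ends of the scale. The row of mutant replicate 1 is red in 61 of 62 genes, and those of mutant replicates 2 and 3 are paler, with medians of 0.16 and 0.10 against 0.64.

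Fitted without mutant replicate 1, the shift was smaller. Of 63 histone genes then tested, 52 had a log2 fold change above 0 (49% of all genes) with a median of 0.15. An unadjusted p under 0.05 was found for 8, all higher in the mutant (4.29% of all genes higher, 3.67% lower), and 0 passed the adjusted threshold (0.123% of all genes). The 8 were Hist1h3d (0.73), Hist1h2ak (0.26), Hist3h2a (0.59), Hist2h2bb (0.72), Hist2h2aa2 (0.35), Hist1h2ab (0.43), Hist1h1a (0.21) and Hist1h3i (0.44), given as log2 fold changes in that fit. By class the medians without replicate 1 were 0.036 for H1, 0.23 for H2A, 0.079 for H2B, 0.27 for H3 and 0.12 for H4. The number at p under 0.05 also moved without other libraries, to 12 of 63 tested histone genes without wild-type replicate 2 (11 higher and 1 lower, beside 7.32% of all genes in either direction) and to 36 of 63 without mutant replicate 3 (all higher, beside 12.4% of all genes).

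The linker histone genes moved least. H1 sums were 377.3, 339.0 and 380.3 CPM in wild type against 506.4, 379.4 and 360.0 in the mutant, so the groups overlapped outside mutant replicate 1 (log2 ratio 0.17, and 0.02 without it). Hist1h1e, the most heavily read H1 gene and a main somatic H1 subtype, measured 155, 146 and 161 CPM in wild type against 209, 151 and 145 in the mutant (log2 fold change 0.13, SE 0.12, adjusted p = 0.741). The mutant values bracket the wild-type ones, and without mutant replicate 1 its log2 fold change was -0.05. Hist1h1b, another somatic subtype, measured 82.0, 70.8 and 88.0 against 105, 86.3 and 80.1 CPM (0.18, SE 0.11, adjusted p = 0.611), and Hist1h1c 65.6, 55.5 and 59.3 against 90.3, 63.9 and 59.3 CPM (0.25, SE 0.14, adjusted p = 0.577). These log2 fold changes fell to 0.05 for Hist1h1b and 0.04 for Hist1h1c without mutant replicate 1. Of the 5 tested H1 genes, 1 had p under 0.05 and was higher (5.83% of all genes). That was Hist1h1a, at 41.3, 37.2 and 40.6 CPM in wild type against 62.4, 47.1 and 44.4 in the mutant, with all mutant values above all wild-type values (0.37, SE 0.12, adjusted p = 0.292, and 0.21 without mutant replicate 1).

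H2A had the clearest gap between genotypes among the class sums. H2A sums were 142.1, 136.3 and 138.6 CPM in wild type against 226.9, 172.9 and 161.1 in the mutant (log2 ratio 0.41, and 0.26 without mutant replicate 1), so that even the lowest mutant library was well above the wild-type mean of 139 ± 2.9 CPM (SD, n = 3). With offsets for GC content and length the log2 ratio of the sums was 0.29. Of 16 tested genes 15 were above 0 (50.6% of all genes). At p under 0.05, 6 were higher (5.83% of all genes), and 5 were higher without overlap (8.45% of all genes). Hist1h2ak (ENSMUSG00000063021.3, chromosome 13 from 21753435 to 21753827, minus strand) measured 48.6, 42.2 and 46.8 CPM in wild type against 68.8, 55.1 and 54.8 in the mutant. Every mutant library was above every wild-type one (0.38, SE 0.097, adjusted p = 0.2). Hist2h2aa2, in the Hist2 cluster, measured 15.2, 17.2 and 13.6 against 32.4, 19.5 and 19.7 CPM (0.64, SE 0.19, adjusted p = 0.257), again without overlap. Hist1h2ab measured 8.68, 11.6 and 10 against 19.5, 14.9 and 12.2 CPM (0.63, SE 0.18, adjusted p = 0.244). Hist2h2ac, the third in level, did not follow, with 13.8, 11.3 and 15.2 against 19.1, 13.6 and 12.8 CPM (0.18, SE 0.17, adjusted p = 0.762) and -0.03 without mutant replicate 1.

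Some genes varied widely between libraries of 1 genotype, and the examples here were named after their values were seen. Hist1h2an measured 4.35, 8.17 and 4.86 CPM in wild type against 13.0, 13.0 and 2.52 in the mutant. Hist1h2ah was lowest in wild-type replicate 2 and mutant replicate 2 (1.54 and 0.825 CPM), and stood at 3.75 to 4.15 CPM in the other 4 libraries. Their log2 fold changes of 0.72 (SE 0.48) and -0.06 (SE 0.51) are therefore poorly determined, and were 0.43 and -0.39 without mutant replicate 1. Hist1h2af (SE 0.48), Hist1h4b (0.48), Hist1h4a (0.46) and Hist3h2ba (0.46) had SEs of similar size at lower levels. The coding sequence of Hist1h2an is 99.0% identical to that of Hist1h2ad, so its reads depend on how they were shared among copies.

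H2B genes were higher mainly in mutant replicate 1. The H2B sums were 306.2, 265.5 and 291.5 CPM in wild type against 453.7, 297.8 and 318.8 in the mutant, and mutant replicate 2 lay within the wild-type range (log2 ratio 0.29, and 0.10 without replicate 1). All 17 tested genes had a log2 fold change of 0 or above, beside 50.6% of all genes above 0. At p under 0.05, 7 were higher (5.83% of all genes), and 4 were higher without overlap (8.45% of all genes). Hist1h2bm, the highest by length and the gene with the octamer shown above, measured 44.8, 37.9 and 46.2 against 73.7, 44.6 and 52.6 CPM (0.41, SE 0.16, adjusted p = 0.400). Hist1h2bl measured 29.3, 25.1 and 28.6 against 46.8, 28.1 and 31.1 CPM (0.36, SE 0.16, adjusted p = 0.483), and both genes overlapped between genotypes. They stood at 0.18 and 0.10 without mutant replicate 1. Hist1h2bj did not overlap, at 21.3, 19.0 and 21.6 against 35.2, 23.8 and 22.5 CPM (0.40, SE 0.15, adjusted p = 0.408, and 0.17 without mutant replicate 1). The H2B genes with the smallest p were others. Hist2h2bb, low in level, measured 1.34, 1.29 and 1.29 against 2.05, 1.99 and 2.32 CPM, close within each genotype and well apart between them (0.69, SE 0.21, adjusted p = 0.287). Hist1h2bc, a spliced model, measured 10.7, 14.0 and 8.5 against 20.1, 13.6 and 15.5 CPM (0.57, SE 0.19, adjusted p = 0.332, and 0.39 without mutant replicate 1).

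H3 comes in 2 replication-dependent proteins, and they differed in how far mutant replicate 1 decided the result. The 8 genes for H3.2 summed to 58.31, 55.49 and 61.31 CPM in wild type against 118.2, 65.85 and 60.76 in the mutant (log2 ratio 0.42, and 0.12 without replicate 1). The 4 genes for H3.1 (Hist1h3a, Hist1h3g, Hist1h3h and Hist1h3i) summed to 16.87, 14.29 and 18.66 CPM and to 25.97, 22.29 and 18.96 CPM, with no overlap (0.43, and 0.32 without replicate 1). No test was made of the difference between the 2 sets. Most of the H3.2 reads came from Hist2h3c1 and Hist2h3c2, identical in coding sequence. Hist2h3c2 measured 16.5, 14.8 and 17.9 against 37.7, 18.2 and 15.4 CPM (0.54, SE 0.27, adjusted p = 0.524, and 0.04 without mutant replicate 1), so it was high in mutant replicate 1 and near wild type in the other two. Hist1h3d (ENSMUSG00000099583.2, chromosome 13 from 23575763 to 23577011, plus strand) had the smallest p of all histone genes, at 2.04, 1.74 and 2.13 CPM in wild type against 3.83, 3.34 and 3.19 in the mutant (0.81, SE 0.19, adjusted p = 0.168), and its genotypes stayed apart in every library. For the H3.1 genes, Hist1h3i measured 3.08, 2.62 and 3.26 against 4.46, 4.16 and 3.94 CPM without overlap (0.49, SE 0.17, adjusted p = 0.370). Hist1h3h measured 6.26, 4.98 and 6.67 against 10.9, 8.27 and 6.26 CPM (0.51, SE 0.21, adjusted p = 0.429, and 0.28 without mutant replicate 1). Of 12 H3 genes, 4 had p under 0.05 and were higher (5.83% of all genes). Hist1h3c, the other of these, measured 2.61, 2.7 and 2.40 against 3.69, 3.36 and 3.41 CPM (0.44, SE 0.17, adjusted p = 0.417), and Hist1h3e, the third in level, 9.77, 9.05 and 10.8 against 15.6, 11.1 and 9.85 CPM (0.30, SE 0.17, adjusted p = 0.584). Without mutant replicate 1 these stood at 0.40 for Hist1h3c and 0.08 for Hist1h3e. Hist2h3b went the other way at a very low level, from 0.718, 0.471 and 0.472 to 0.343, 0.403 and 0.267 CPM (-0.71, SE 0.41, adjusted p = 0.594, and -0.72 without mutant replicate 1).

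No H4 gene had p under 0.05, beside 5.83% of all genes higher and 4.8% lower. Of 12 tested, 11 were above 0 (50.6% of all genes), with a median of 0.37. H4 sums were 156.1, 140.8 and 158.1 CPM in wild type against 226.5, 160.5 and 162.0 in the mutant (log2 ratio 0.25, and 0.09 without mutant replicate 1), and replicates 2 and 3 were above the wild-type maximum by a small margin. Hist1h4d (ENSMUSG00000061482.7, chromosome 13 from 23581598 to 23582735, plus strand) set most of this total, with 113, 104 and 118 against 161, 113 and 121 CPM (0.24, SE 0.12, adjusted p = 0.5). Mutant replicate 2 lay within the wild-type range and replicate 3 just above it. Hist1h4k measured 7.47, 7.80 and 6.18 against 11.1, 9.32 and 7.13 CPM (0.37, SE 0.18, adjusted p = 0.511), and Hist2h4 7.75, 5.41 and 8.21 against 12.7, 7.92 and 8 CPM (0.43, SE 0.22, adjusted p = 0.536). Hist1h4h, the third in level, measured 5.86, 5.69 and 3.88 against 7.86, 6.16 and 4.46 CPM (0.26, SE 0.23, adjusted p = 0.737). Without mutant replicate 1 the log2 fold change was 0.07 for Hist1h4d, 0.20 for Hist1h4k, 0.16 for Hist2h4 and 0.05 for Hist1h4h.

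**Figure D4:**
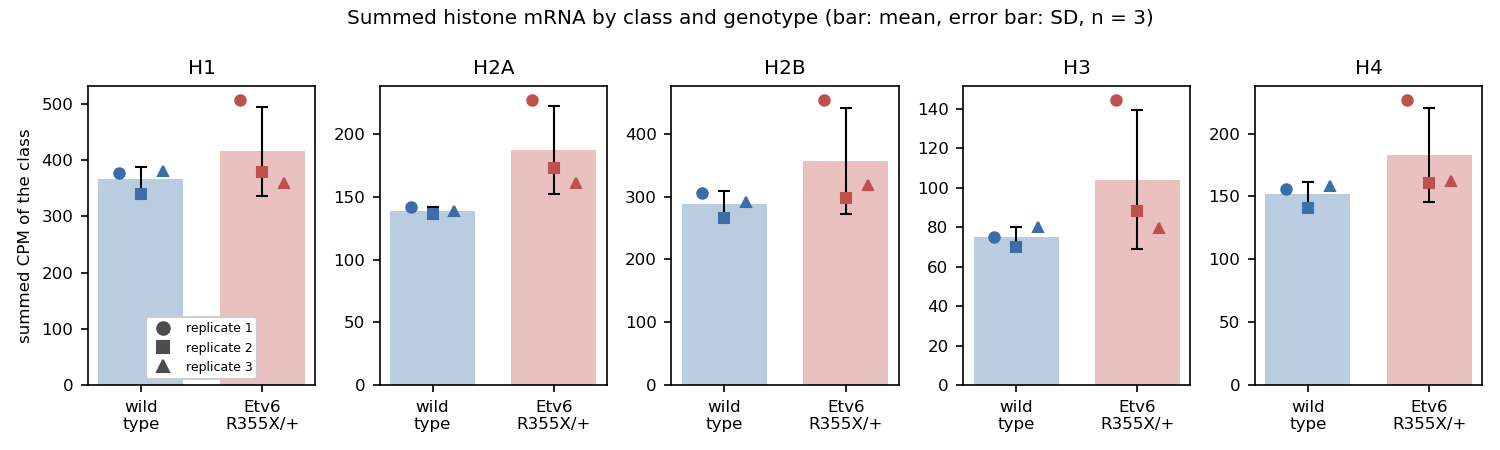
Summed CPM of each histone class in 3 wild-type and 3 Etv6 R355X/+ libraries, with bars for the mean, error bars for the SD (n = 3) and points for libraries (circle, square and triangle for replicates 1, 2 and 3). Mutant replicate 1 is the highest point in every class. In H2A replicates 2 and 3, at 172.9 and 161.1 CPM, also stand clear of the wild-type maximum of 142.1, and in H4 they stand just above it, at 160.5 and 162.0 against 158.1.

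The make-up of the histone mRNA pool can be read within a library, free of its total. H1 made up 35.7%, 35.6% and 36.3% of histone reads in wild type and 32.5%, 34.5% and 33.3% in the mutant. H2A made up 13.4%, 14.3% and 13.2% in wild type and 14.6%, 15.7% and 14.9% in the mutant. Both shares were apart between genotypes in every library, with H1 lower and H2A higher in the mutant. H3 held 7.11% to 7.63% in wild type and 7.37% to 9.26% in the mutant, highest in replicate 1. H2B (27.8% to 29.0% and 27.1% to 29.5%) and H4 (14.8% to 15.1% and 14.5% to 15.0%) overlapped. These shares are descriptions of sums over genes chosen by name, and no test was made of them. They were not recomputed with offsets for GC content and length. With those offsets the log2 ratio of the sums was 0.12 in place of 0.17 for H1 and 0.29 in place of 0.41 for H2A.

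By cluster, the genes in Hist1 and Hist2 had medians of 0.37 (50 tested) and 0.43 (9 tested). Within Hist1, the block from 21715763 to 22043676 on chromosome 13 (23 genes) had a median of 0.37 and that from 23531050 to 23934851 (31 genes) one of 0.31. Both Hist3 genes were higher in every mutant library. Hist3h2a (ENSMUSG00000078851.4, chromosome 11 from 58954685 to 58956830, plus strand) measured 11.2, 12.3 and 7.74 CPM in wild type against 17.5, 17.2 and 14.1 in the mutant, without overlap (0.65, SE 0.17, adjusted p = 0.208). Hist3h2ba measured 0.408, 0.369 and 0.472 against 2.05, 0.806 and 0.646 CPM, with a log2 fold change of 1.51 (SE 0.46, adjusted p = 0.278), the largest of the 62 tested with all libraries. Without mutant replicate 1 it fell to 0.80 (SE 0.40, adjusted p = 0.675) and was no longer at p under 0.05, and Hist1h2af had the larger value of 1.21 (SE 0.55). The Hist3 sum had a log2 ratio of 0.71, and of 0.62 without mutant replicate 1, where Hist1 went from 0.25 to 0.09. Hist4h4 lies 2531 kb from Etv6 on chromosome 6, from 136801553 to 136804415 on the minus strand. It measured 2.35, 2.42 and 2.30 against 4.05, 3.13 and 2.14 CPM (0.41, SE 0.24, adjusted p = 0.6, and 0.16 without mutant replicate 1), and mutant replicate 3 lay below all wild-type libraries.

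Genes that act in S phase beside the histone genes had a median near 0. Of 47 tested genes of S phase and DNA replication, 0 passed the adjusted threshold (0.266% of all genes). Of these 47, 1 had p under 0.05, beside 5.83% of all genes higher and 4.8% lower. It was the activator gene E2f2 (25.0 ± 4.40 to 34.7 ± 8.02 CPM, log2 fold change 0.47, adjusted p = 0.359). Of the 47, 36 had a log2 fold change above 0 (50.6% of all genes), and the median was 0.049. Pcna, the sliding clamp of DNA polymerase, measured 285 ± 8.82 and 320 ± 43.4 CPM (0.16, adjusted p = 0.551). The 35 genes of G2 and mitosis had a median of 0.019, with 19 above 0 (50.6% of all genes) and 0 at p under 0.05. In mutant replicate 1 the median deviation from the wild-type mean was 0.64 for the histone genes, 0.14 for the S-phase list and 0.11 for the mitotic list, and in wild-type replicate 3 the mitotic list stood at 0.25 with the histone genes at 0.05.

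The machinery that makes and matures histone mRNA was nearly level. Of 32 tested genes of histone transcription and 3' end processing, 3 had p under 0.05, all higher in the mutant. At that p, 5.83% of all genes were higher and 4.8% lower. Of the 32, 0 passed the adjusted threshold (0.266% of all genes) and the median was 0.026. Slbp, the stem-loop binding protein gene, measured 84.6, 83.1 and 94.4 CPM in wild type against 99.2, 93.2 and 96.1 in the mutant (0.14, SE 0.066, adjusted p = 0.5). Npat measured 64.4 ± 2.74 and 63.7 ± 1.32 CPM (-0.02, SE 0.061, adjusted p = 0.960). The 3 were Tut7, which encodes a uridylyltransferase that acts on histone mRNA in decay (0.16, adjusted p = 0.373), and the Sm ring genes Snrpe (0.21, adjusted p = 0.417) and Snrpg (0.29, adjusted p = 0.436). Of 31 histone chaperone and assembly genes, 3 had p under 0.05 (Npm3, Anp32a and Dnajc9), all higher. This stands beside the same shares of all genes, 5.83% higher and 4.8% lower. The median of the 31 was -0.0068.

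Replication-independent histone genes, most of which are made throughout the cycle with poly(A) tails, lay between. Of 13 tested, 11 were above 0 (50.6% of all genes), with a median of 0.18. At p under 0.05, 3 were higher (5.83% of all genes). These were H2afy2 (0.44, adjusted p = 0.438) and H2afy (0.18, adjusted p = 0.466), which encode the macroH2A proteins, and H2afv, a gene for H2A.Z (0.22, adjusted p = 0.456). H2afz, the other H2A.Z gene, measured 651 ± 60.3 and 691 ± 51.0 CPM (0.08, adjusted p = 0.761). H2afx, which marks DNA breaks when phosphorylated, measured 126 ± 13.4 and 142 ± 32.3 CPM (0.18, adjusted p = 0.687), and -0.02 without mutant replicate 1. H1f0, a linker histone of slowly dividing and differentiated cells, measured 45.7 ± 7.38 and 54.1 ± 4.55 CPM (0.24, adjusted p = 0.472). In mutant replicate 1 this list had a median deviation of 0.30.

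**Figure D5:**
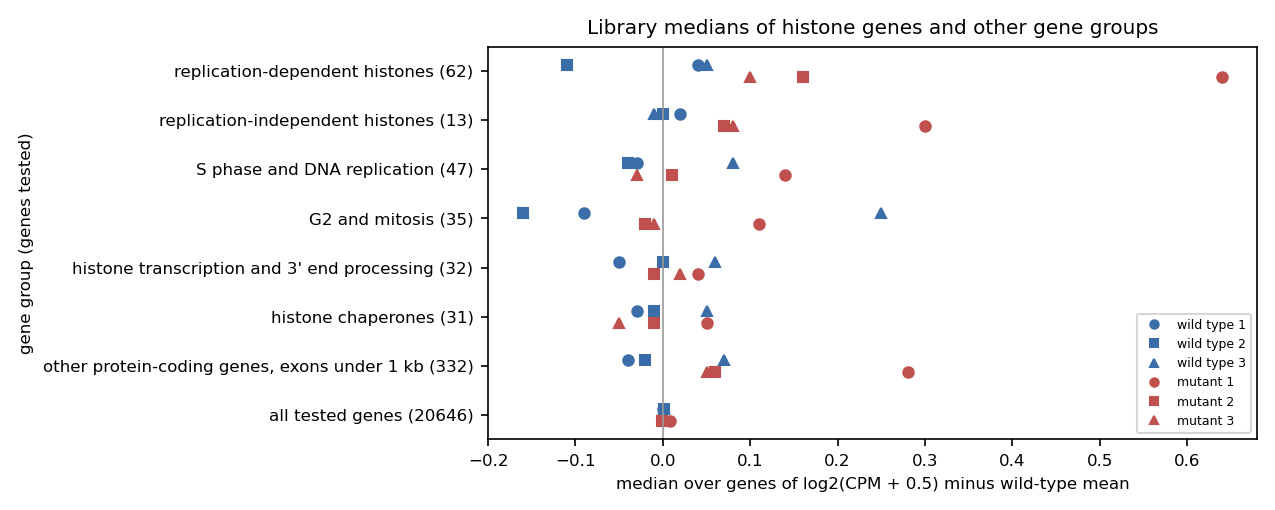
Median over each gene group of log2(CPM + 0.5) minus the wild-type mean, 1 point per library (blue wild type, red mutant). Mutant replicate 1 stands at 0.64 for the replication-dependent histones, 0.30 for the replication-independent ones, 0.28 for other short genes and 0.14 for the S-phase list, with all tested genes near 0.

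Other features moved with mutant replicate 1. Within the ribosomal RNA share given above, the transcript AY036118 took 1.26% of its counts against 0.247% to 0.431% elsewhere. Other protein-coding genes with under 1 kb of exon, as most histone genes have, stood at a median of 0.28 in that library (332 genes, -0.04 to 0.07 in the other libraries). Protein-coding genes with over 55% GC (2964 genes) stood at 0.02 and single-exon genes (313) at 0.04. Of the B cell markers, all 16 were tested and 16 of 16 were above 0. At p under 0.05, 12 were higher, and 1 passed the adjusted threshold (Iglc1). Beside this and the marker lists below, 50.6% of all genes were above 0. At p under 0.05, 5.83% of all genes were higher and 4.8% lower, and 0.266% passed the adjusted threshold. The B cell markers summed to 2705 to 4272 CPM in wild type and 4237 to 4616 CPM in the mutant. Their median deviations of 1.28, 0.80 and 0.32 in mutant replicates 1, 2 and 3 had the same order as those of the histone genes. Erythroid markers (0.28, 0.06 and -0.78) and T and NK cell markers (0.61, 0.16 and -0.02) had that order too. So did the macrophage and dendritic cell (0.58, 0.30 and 0.07), S-phase and chaperone lists, but not the other lists. Of 14 macrophage and dendritic cell markers 8 were higher at p under 0.05 and 1 lower, and of 10 mast cell, basophil and eosinophil markers 6 were higher. Summed levels were 352.6 to 442.0 and 402.2 to 448.1 CPM for the first list, and 125.4 to 140.0 and 152.7 to 166.8 CPM for the second. Erythroid, neutrophil, and T and NK cell markers had 2, 0 and 2 genes higher and 0, 2 and 1 lower of 15, 13 and 14, with medians of -0.17, -0.14 and 0.35. Past the adjusted threshold were the erythroid globin genes Hbb-bt (2.12, adjusted p = 0.00213) and Hbb-bs (1.25, adjusted p = 0.0312), the NK cell receptor gene Klrb1c (1.82, adjusted p = 0.0177) and Fcer1a (2.31, adjusted p = 0.00522), a subunit of the IgE receptor of mast cells and basophils. Without mutant replicate 1, Hbb-bs (1.03, adjusted p = 0.0827) and Klrb1c (1.63, adjusted p = 0.0648) no longer passed. The LSK markers themselves had 0 higher and 3 lower of 12 at p under 0.05, with 1 of 12 above 0 and a median of -0.12. With offsets for GC content and length in the edgeR fit, the median of the 62 histone genes was 0.27 in place of 0.37, and 11 had p under 0.05, all higher (9.53% of all genes in either direction). The part of ribosomal RNA content or cell make-up in the histone values was not tested.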

How the data were processed

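LSK cells were sorted after magnetic c-Kit enrichment, and cDNA from single-primer amplification was sheared for library construction, per the labels' protocols. The authors deposited expected counts, 1 value per gene and library, unscaled for depth. The submitters' processing notes name Trim Galore 0.60, STAR 2.7, RSEM 1.31 and build mm10. The deposited counts are labelled unstranded, so reads were counted without regard to strand. The sources used here do not give the annotation release. All 67 histone gene identifiers matched GENCODE M21 with their versions.

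Expected counts were rounded, filtered with filterByExpr (20646 genes kept) and scaled by TMM. The genotype test was that of edgeR 4.0.16 in R 4.3.3 (quasi-likelihood, two-sided, no covariates, Benjamini-Hochberg adjustment over all tested genes, threshold 0.05), tested first on simulated data. Errors after ± are SDs. DESeq2 1.42.0, limma-voom (limma 3.58.1) and other scalings, filters and offsets were alternatives. The 92 spike-in rows, listed at 0, were left out. Sums and medians over histone genes were described without a test, and deviations use log2(CPM + 0.5).

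Named with values are the 3 highest genes per kb and the 3 with the smallest p in each class, Hist4h4, up to 4 genes with the smallest p in each other list, and Etv6, Slbp, Npat, H2afz, H2afx and H1f0. Others are described as pairs, copies or outliers. The genes and lists were chosen with earlier results of these data known. No 2 libraries of a genotype agreed within sampling noise (chi-square per gene 11.2 to 46.5). P-values measure the spread between these libraries, which may be technical.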

Additional observations from a re-analysis of the deposited data

How the results depend on the processing

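The direction of the histone median held under every alternative run. It was 0.37 with all libraries and ran from 0.15 (without mutant replicate 1) to 0.46 when single libraries were left out. Summing counts per identical protein left 25 of 26 proteins above 0. The number of histone genes past the adjusted threshold was 0 in the edgeR test, 5 with DESeq2 and 10 without a count filter, and 0 in each leave-one-out fit. The number at an unadjusted p under 0.05 was 18, against 35 without a filter and 11 with offsets for GC content and length. It was 8 to 36 when single libraries were left out. At that p, 5.83% of all genes were higher and 4.8% lower, and with the offsets 9.53% in either direction. Without mutant replicate 1 (8 histone genes) 4.29% were higher and 3.67% lower, and without mutant replicate 3 (36) 12.4% in either direction. The number of all genes at that p was also larger without a filter. Its share of the genes then tested was not computed, so the 35 and 10 found without a filter have no such share beside them. Over all genes, 55 passed, against 323 with DESeq2, 527 without a filter and 16 to 67 when single libraries were left out. Etv6 passed with DESeq2 (log2 fold change -0.31, adjusted p = 0.0491) and without a filter (-0.30, adjusted p = 0.0111). The causes were not tested. Without mutant replicate 1 the log2 fold change turned to -0.05 for Hist1h1e, -0.03 for Hist2h2ac and -0.02 for H2afx, and with other single libraries left out it reached 0.23, 0.28 and 0.28. Npat, near 0, stood at 0.02 with GC and length offsets, at 0.02 with these and the replicate block, and between -0.04 and 0.02 when single libraries were left out (0 without mutant replicate 2).

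Libraries with the same replicate number did not deviate together over all tested genes (r = -0.0349, -0.0657 and -0.154). With 3 libraries per genotype this cannot exclude that the numbers pair them, and single genes such as Hist1h2ah were low in replicate 2 of both genotypes. With the replicate block, 32 of all genes and 0 histone genes passed, and 20 histone genes had p under 0.05. Fewer of all genes had p under 0.05 with the block than without it, but their share was not computed, so the 20 have none beside them. With the replicate block and the GC and length offsets together, 31 of all genes passed. With 3 libraries per genotype and near-identical copies sharing reads, small differences of single histone genes may have been missed. A p that misses the threshold does not show that a gene was unchanged.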
